A study of Homo sapiens with 2 samples.

Results

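MicroRNA host genes are genes whose primary transcript carries the hairpin of a microRNA. The 84 genes described here were chosen by symbol alone, as all genes whose symbol starts with MIR and ends with HG, out of 62700 genes in the gene table. They were measured in the human line TCam-2, an established model of seminoma, a tumour of testicular germ cells. The line had been transduced to overexpress FLAG-tagged DDX53, a DEAD-box RNA helicase. There was 1 group of 2 libraries, from polyadenylated RNA made with a strand-specific kit. The study's control cells, transduced with a GFP construct or not transduced, were not analysed here, so nothing below is an effect of DDX53. The labels do not say whether the replicates came from separate cultures, and the spread given may be technical.

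As background, a host transcript is cut in the nucleus by DROSHA with DGCR8, which frees the hairpin. The hairpin is exported by XPO5, cut again by DICER1 and loaded into an Argonaute protein, where bases 2 to 8 of the mature microRNA, the seed, pair with target messages. Libraries of polyadenylated RNA capture mostly spliced host RNA. Many hairpins lie in introns, which spliced RNA lacks, and others lie in exons. Neither the hairpin nor the mature microRNA was measured.

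The libraries held 24137664 reads in genes in replicate 1 and 22198929 in replicate 2. DDX53 had 146 reads, or 6.05 CPM, in replicate 1 and 147 reads, or 6.62 CPM, in replicate 2, and its overexpression was not checked here against a control. All 8 markers of seminoma and primordial germ cells reached 1 CPM (reads of a gene scaled to the reads of its library in genes) in both libraries. Of 3 embryonal carcinoma markers TDGF1 and DNMT3B did, at 123 and 111 CPM on average, and SOX2 did not, at 0.994 and 1.08 CPM. None of the 3 markers of later germ cells did, and PTPRC of blood cells had no read. Of the testis somatic markers SOX9 and AMH were detected, with a summed 14.0 and 10.5 CPM over all 4 such markers, and STAR and CYP17A1 were at 4 reads or fewer. Of 3 markers of fibroblasts and endothelium COL1A2 was detected, at 439 ± 22.2 CPM (SD, n = 2), while DCN had 1 read in each library. The part of other cells in the host levels was not tested.

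Some of the mature microRNAs carried by the host with the most reads, MIR302CHG, and by MIR17HG, the host of a cluster with related seeds, are shown first. Left out are the other arms of these hairpins and the hairpin of miR-19b, whose miR-19b-3p has the same seed as miR-19a-3p. Sequences are RNA, 5′ to 3′, from RefSeq on GRCh38.p14, with the seed in capitals.
hsa-miR-302a-3p: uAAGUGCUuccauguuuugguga, chr4:112648186-112648208, minus strand
hsa-miR-302b-3p: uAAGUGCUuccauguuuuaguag, chr4:112648489-112648511, minus strand
hsa-miR-302c-3p: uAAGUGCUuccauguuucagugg, chr4:112648366-112648388, minus strand
hsa-miR-302d-3p: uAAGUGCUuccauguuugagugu, chr4:112648006-112648028, minus strand
hsa-miR-367-3p: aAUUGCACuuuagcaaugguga, chr4:112647877-112647898, minus strand
hsa-miR-17-5p: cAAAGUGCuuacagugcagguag, chr13:91350618-91350640, plus strand
hsa-miR-20a-5p: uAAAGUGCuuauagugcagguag, chr13:91351072-91351094, plus strand
hsa-miR-18a-5p: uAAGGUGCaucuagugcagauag, chr13:91350756-91350778, plus strand
hsa-miR-19a-3p: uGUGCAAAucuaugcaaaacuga, chr13:91350939-91350961, plus strand
hsa-miR-92a-3p: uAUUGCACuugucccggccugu, chr13:91351361-91351382, plus strand
The 4 miR-302 guides shared the seed AAGUGCU, and miR-17 and miR-20a shared AAAGUGC. These seeds had a stretch of 6 bases, AAGUGC, in common. miR-367 of the MIR302CHG cluster and miR-92a of the MIR17HG cluster had the same seed, AUUGCAC.

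A second seed joined hosts that lie on different chromosomes, that of the let-7 family.
hsa-let-7i-5p: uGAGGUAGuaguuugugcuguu, chr12:62603691-62603712, plus strand
hsa-miR-4458: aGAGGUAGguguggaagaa, chr5:8460933-8460951, plus strand
Among the hosts at 1 CPM or more in both libraries, 19 had mature sequences in the RefSeq table, for 56 microRNAs with 47 seeds. Of these seeds 7 belonged to more than 1 microRNA, and 2 of them, AUUGCAC and GAGGUAG, occurred in more than 1 host. By comparison, AAGUGCU was the seed of 12 and AAAGUGC of 8 of the 2545 entries for mature microRNAs in that table.

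Other hosts of well-studied microRNAs in these cells carried seeds found in no other detected host.
hsa-miR-205-5p: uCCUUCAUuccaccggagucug, chr1:209432166-209432187, plus strand
hsa-miR-34a-5p: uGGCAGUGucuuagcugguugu, chr1:9151735-9151756, minus strand
hsa-miR-210-3p: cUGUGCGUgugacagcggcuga, chr11:568112-568133, minus strand
miR-205 is known from epithelia, miR-34a as a target of p53 and miR-210 as a target of the hypoxia response. These 3 are shown because their hosts are described below.

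Reads were found for 52 of the 84 host genes, or 61.9%, in at least 1 library, against 42.3% of all genes and 37.3% of the long non-coding genes of GENCODE 29. A level of at least 1 CPM in both libraries, called detected here, was reached by 21 of the 84 genes, or 25% of them. The same was true of 21.7% of all genes in the table and of 5.78% of the 15753 genes that GENCODE 29 lists as long non-coding. A further 31 hosts had reads without being detected, and 32 had no read in either library. A count of 0 allows up to 3 reads, or 0.124 CPM in the first and 0.135 CPM in the second replicate. These limits and the intervals below cover counting error only.

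The reads were unequally spread over the hosts. All 84 together took 3931 reads in replicate 1, which is 0.0163% (0.0158 to 0.0168, a 95% Wilson interval). In replicate 2 they took 3659, or 0.0165% (0.0160 to 0.0170). Of those reads MIR302CHG took 32.4% in replicate 1 and 32.9% in replicate 2. The 4 hosts with the most reads, MIR302CHG, MIR548XHG, MIR205HG and MIR4435-2HG, took 63.6% and 62.2% together.

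MIR302CHG (ENSG00000249532.6) is the host of the miR-302 and miR-367 hairpins, a cluster known from pluripotent stem cells and germ cell tumours. GENCODE 29 has it as AC106864.1, on the minus strand of chromosome 4 from 112646476 to 112650051 on GRCh38. Replicate 1 gave it 1274 reads and 52.8 CPM, with Wilson bounds of 50.0 and 55.8. Replicate 2 gave it 1202 reads and 54.1 CPM, with bounds of 51.2 and 57.3. The intervals overlapped. By mean CPM it was number 18 of the 15753 long non-coding genes. Per kilobase of exonic length, the scale used here to compare genes, it had 72.0 ± 1.30 CPM (SD, n = 2), number 7 of those genes. That was 5.11 times the level of the next host on this scale, MIR548XHG. By TPM the order differed, with 328 for MIR302CHG in each library, 18.0 and 19.8 for MIR4435-2HG and only 2.10 and 1.61 for MIR548XHG.

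The MIR302CHG locus lies within LARP7, a gene for a protein that binds 7SK RNA, on the opposite strand. Exons of LARP7 covered 40.6% of the exonic length of MIR302CHG. The setting for strand in the gene counts is not given in the sources used here, so reads of the pair cannot be told apart in that stretch. The same holds for the other overlaps with opposite exons given below. LARP7 was at 43.0 CPM in replicate 1 and 45.5 CPM in replicate 2. In the transcript table MIR302CHG had 328 TPM (the transcript abundance unit of the deposited table, which is per length) in each library. Its main transcript, AC106864.1-203, made up 58.1% and 58.6% of that sum, and AC106864.1-202 made up 41.6% and 41.2%. These transcripts have 294 and 345 bases and no annotated transcript holds a hairpin of the cluster whole in an exon.

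**Figure D1:**
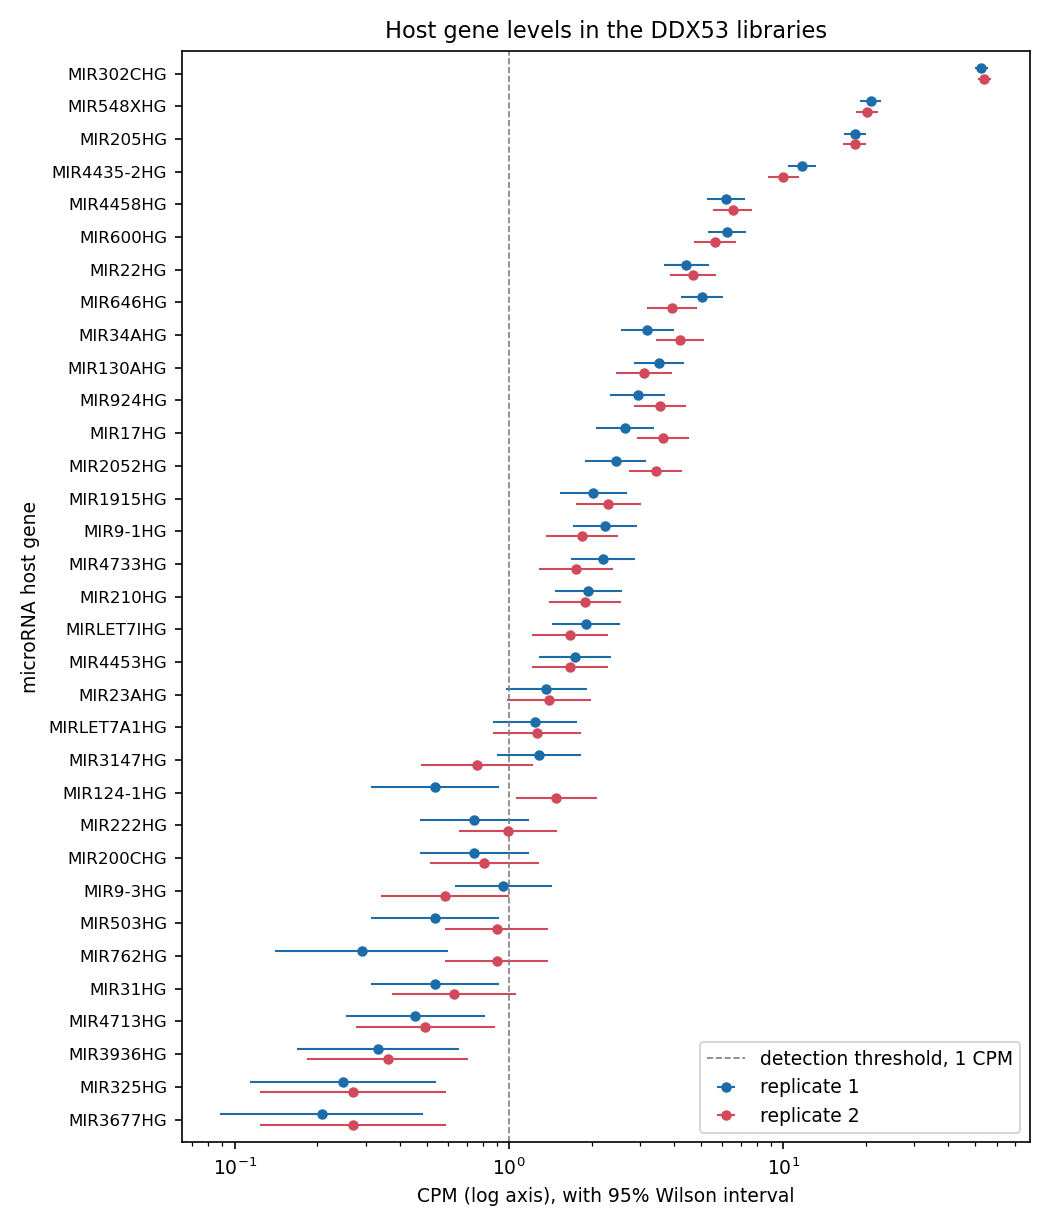
Level of the 33 host genes with at least 10 reads in the libraries together, in CPM on a log axis, with points for replicate 1 and replicate 2 and bars for 95% Wilson intervals. MIR302CHG stands at 52.8 and 54.1 CPM, right of all other hosts, and MIR124-1HG is the host whose intervals do not overlap.

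The plot of levels by library shows 3 more hosts at about 10 CPM or above. MIR548XHG (ENSG00000224141.6, chromosome 21 from 18561265 to 18760003, minus strand) had 502 reads in replicate 1 and 448 in replicate 2, a mean of 20.5 ± 0.436 CPM (SD, n = 2). MIR205HG (ENSG00000230937.13, chromosome 1 from 209428820 to 209432838, plus strand) carries miR-205, which restrains the factors ZEB1 and ZEB2 in epithelia. It had 441 and 404 reads, or 18.3 and 18.2 CPM. MIR4435-2HG (ENSG00000172965.17, chromosome 2 from 111036776 to 111523376, minus strand), a long non-coding RNA whose span overlaps the apoptosis gene BCL2L11 on the opposite strand, had 282 and 222 reads, or 11.7 and 10.0 CPM. Exons of BCL2L11 covered 5.55% of its exonic length, where the reads cannot be told apart. All 3 had overlapping Wilson intervals between the libraries.

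Per kilobase the order was different. MIR548XHG had 14.1 ± 0.300 CPM per kilobase, MIR205HG 5.18 ± 0.0143 and MIR4733HG 4.02 ± 0.631 (SD, n = 2 each). MIR4435-2HG, whose merged exons measure 13094 bases, had 0.828 ± 0.0909 CPM per kilobase (SD, n = 2) and came 14th among the 21. This place rests on the merged exons of 25 transcripts. A transcript of 514 bases held most of its TPM, and by TPM, at 18.0 and 19.8, MIR4435-2HG came next after MIR302CHG. The 17 detected hosts below MIR4733HG, MIR4435-2HG among them, lay between 0.0725 and 1.53 CPM per kilobase. Along this order MIR302CHG, MIR548XHG and MIR4733HG were each above the next host with no overlap of Wilson intervals within or between libraries, as were MIR34AHG and MIR9-1HG lower down. In 5 more of the 20 neighbouring pairs, among them MIR205HG over MIR4733HG and MIR210HG over MIR1915HG, both values of the higher host were above both of the lower, with overlapping intervals. In the other 10 pairs the values of the libraries overlapped. No test was run on the pairs. The median of the 21 hosts was 0.902 CPM per kilobase, against 1.56 for detected long non-coding genes and 4.84 for all detected genes with a length. By CPM per gene the hosts were instead slightly above the detected long non-coding genes, with medians of 3.25 and 2.96 CPM. The order of these 2 groups thus depends on the scale, which per kilobase rests on the merged exons of all transcripts. No test was run on the medians.

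Several hosts of well-studied microRNAs are described next. MIR17HG (ENSG00000215417.14, chromosome 13 from 91347820 to 91354579, plus strand) carries 6 hairpins of a cluster that MYC is known to activate. It had 64 reads in replicate 1, or 2.65 CPM, and 81 in replicate 2, or 3.65 CPM. MIR34AHG (ENSG00000228526.8, chromosome 1 from 9148011 to 9198906, minus strand), the host of miR-34a, had 77 and 93 reads, or 3.19 and 4.19 CPM. Replicate 2 was higher for both, with overlapping Wilson intervals.

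MIR210HG (ENSG00000247095.5, chromosome 11 from 565660 to 568457, minus strand), the host of the hypoxia-induced miR-210, had 47 and 42 reads, or 1.95 and 1.89 CPM. MIR22HG (ENSG00000186594.16, chromosome 17 from 1711493 to 1717174, minus strand) had 107 and 104 reads, or 4.43 and 4.68 CPM. MIR23AHG (ENSG00000267519.6, chromosome 19 from 13823880 to 13842928, minus strand) carries the hairpins of miR-23a, miR-27a and miR-24-2 and had 33 and 31 reads. Its model in GENCODE 29 is a single transcript of 19049 bases. At 0.0725 ± 0.00109 CPM per kilobase (SD, n = 2) MIR23AHG was the lowest detected host on that scale. Part of the exonic length of MIR23AHG lies opposite exons of ZSWIM4, where the reads cannot be told apart.

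Let-7 microRNAs block growth genes and are held back by LIN28 proteins, which bind their precursors. Hosts with the let-7 seed differed widely, and those under 10 reads are named here after their values were seen. MIR4458HG had 149 and 145 reads, a mean of 6.35 ± 0.254 CPM (SD, n = 2). Its transcript with the hairpin in an exon held 16.4% of its TPM in replicate 1 and 10.4% in replicate 2. Binding of the miR-4458 precursor by LIN28 proteins was not tested. MIRLET7IHG, on chromosome 12, had 46 and 37 reads, or 1.91 and 1.67 CPM. By contrast MIRLET7BHG and MIR4500HG had no read in either library, MIR99AHG had 1 read in replicate 1 only, and MIR100HG had 1 and 6 reads. MIRLET7A1HG, on chromosome 9, had 30 and 28 reads, or 1.24 and 1.26 CPM, but 78.7% of its exonic length lies opposite exons of LINC02603, and no annotated hairpin lies in its GENCODE 29 span. LIN28A had 117 ± 6.83 CPM per kilobase and LIN28B 21.6 ± 0.0654 (SD, n = 2 each). MIR302CHG lay between them on that scale and every other host lay below both.

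The other detected hosts included MIR9-1HG, whose miR-9 is known from neural cells. MIR600HG had 150 and 125 reads, MIR646HG 122 and 87, and MIR130AHG 85 and 69. GENCODE 29 lists MIR600HG as sense intronic, overlapping STRBP on the same strand, and 4.24% of its exonic length lies in exons of STRBP. Reads of unspliced STRBP RNA cannot be told apart from those of MIR600HG. MIR130AHG is listed as sense overlapping, with 1.27% of its exonic length in exons of CLP1 on the same strand. Exons of YPEL4 on the opposite strand covered 6.11% of it. Reads of CLP1 and YPEL4 RNA in the shared stretches cannot be told apart from those of MIR130AHG. MIR924HG had 71 and 79 reads, and MIR2052HG 59 and 76. MIR9-1HG had 54 and 41 reads, and MIR1915HG 49 and 51. GENCODE 29 lists both of these as protein-coding, under the names C1orf61 and CASC10. MIR4733HG had 53 and 39 reads, with 29.1% of its exonic length opposite exons of NF1, and MIR4453HG had 42 and 37. Their Wilson intervals overlapped between the libraries in each case.

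Below the threshold, 12 hosts had at least 10 reads in the libraries together. MIR222HG, the host of miR-221 and miR-222, which target the germ cell receptor KIT, had 18 and 22 reads, or 0.746 and 0.991 CPM. MIR200CHG, the host of the epithelial miR-200c and miR-141, had 18 reads in each library. Its annotated exons are short, and per kilobase it had 2.22 ± 0.132 CPM (SD, n = 2), number 5 among the hosts and above 17 of the 21 detected ones in both libraries. Its TPM were 5.12 and 5.51. A threshold on CPM per gene therefore leaves out a host that is higher per length than most of those it keeps.

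The other 10 hosts of this group are given by their reads. MIR3147HG had 31 and 17 reads, MIR9-3HG 23 and 13, MIR503HG 13 and 20, and MIR31HG 13 and 14. MIR124-1HG had 13 and 33 reads and MIR762HG 7 and 20. Exons on the opposite strand covered 56.4% of the exonic length of MIR762HG (exons of BCL7C and AC135048.2) and 40.7% of that of MIR31HG. MIR4713HG had 11 reads and MIR3936HG 8 reads in each library, MIR325HG had 6 in each and MIR3677HG had 5 and 6. MIR3147HG and MIR124-1HG reached 1 CPM in 1 library only. Another 19 hosts had 1 to 9 reads in total.

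Of the hosts of neural microRNAs, MIR9-1HG had 54 and 41 reads, MIR9-3HG 23 and 13, and MIR124-1HG 13 and 33. Other hosts of microRNAs known from other tissues were among the 32 without a read. The first 10 by name were MIR1-1HG, MIR122HG, MIR124-2HG, MIR1302-2HG, MIR1302-9HG, MIR133A1HG, MIR137HG, MIR142HG, MIR155HG and MIR181A2HG. Of these, MIR1-1HG and MIR133A1HG carry microRNAs of muscle, MIR122HG of liver, MIR124-2HG and MIR137HG of neurons, and MIR142HG and MIR155HG of blood cells. MIR223HG of myeloid cells and MIR493HG of the imprinted DLK1 and MEG3 region, named after their values were seen, had no read either. In the same imprinted region MEG3 and MEG8 had no read. Exons on the same strand, those of MEG3 and MEG8 among them, covered 84.3% of the exonic length of MIR493HG. The zeros of these genes are therefore not separate observations. How reads in shared exons were counted is not given in the sources used here.

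The replicates were compared for each host against counting noise. A two-sided exact binomial test on the reads (edgeR, with Benjamini-Hochberg adjustment over 15299 genes) compares these 2 libraries and not conditions. It called 1 of the 29 hosts tested, against 13.1% of all genes tested. Most hosts have few reads, and of the 25 tested hosts with a mean under 10 CPM 1 was called, against 3.71% of the genes tested at such levels. The share of hosts called was thus near that of genes with similar levels.

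The host called was MIR124-1HG (ENSG00000253230.11), on the minus strand of chromosome 8 from 9900064 to 9905366, whose miR-124 is known from neurons. It had 0.539 CPM in replicate 1, between Wilson bounds of 0.315 and 0.922, and 1.49 CPM in replicate 2, between 1.06 and 2.09. On the log2(CPM + 1) scale the difference was 0.69, and edgeR's exact binomial test gave an adjusted p of 0.0172. With 1 library on each side the difference has no replicate check.

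Across the 23 hosts with a mean of at least 1 CPM, 11 were higher and 12 lower in replicate 2. Their median log2 difference was -0.0053, and that of the 13898 genes with such a mean was -0.0077. The differences ran from -0.37 for MIR3147HG to 0.69 for MIR124-1HG. No detected host had separate Wilson intervals between the libraries, while 14.1% of all detected genes did. These shares are not matched by level. The detected hosts had a median of 3.25 CPM and all detected genes 24.4 CPM, and intervals are wider for their level where reads are few. MIR124-1HG, whose intervals were separate, is not among the detected hosts.

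**Figure D2:**
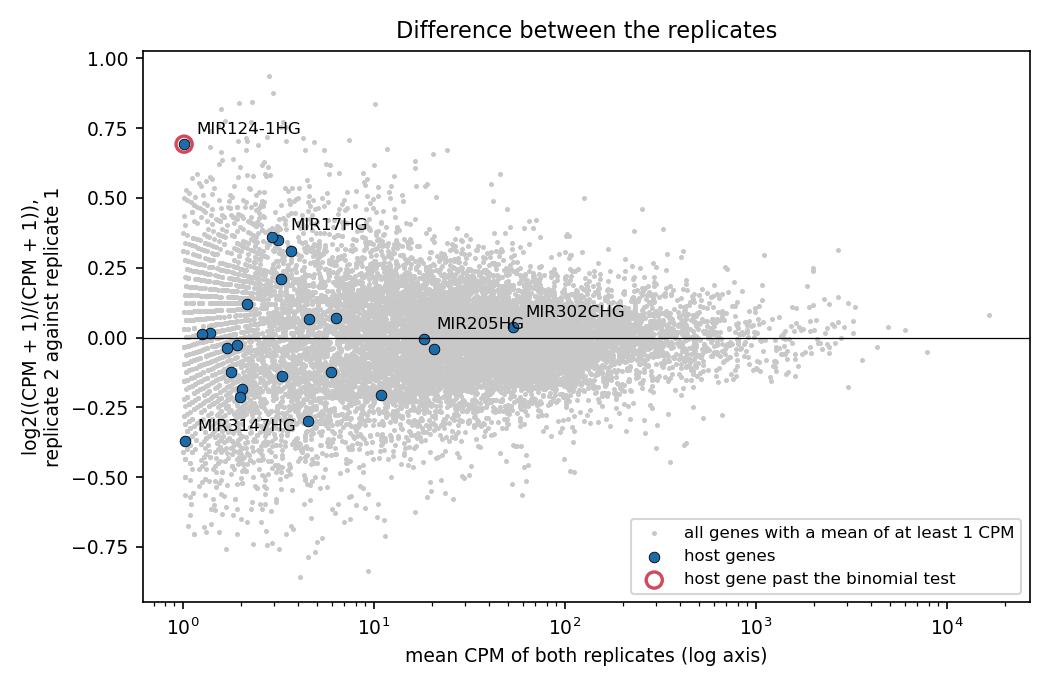
Difference between the replicates on the log2(CPM + 1) scale against mean CPM on a log axis, for the 13898 genes averaging 1 CPM or more (grey) and the 23 host genes among them (blue), with a red ring around the host past the exact binomial test. MIR124-1HG sits at 0.69 at the low end of the axis, and the 4 hosts above 10 CPM lie between -0.21 and 0.036.

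Where the hairpin sits in its host was read from GENCODE 29. Of the 84 hosts, 79 had an annotated hairpin inside their span on the same strand, 125 hairpins in all. By position, 79 hairpins were intronic in every transcript, 39 lay whole in an exon of at least 1 transcript, and 7 overlapped an exon's edge. Among the 21 detected hosts, 11 had intronic hairpins only, 7 had an exonic one, and in MIR302CHG and MIR205HG a hairpin crossed an exon's edge. MIRLET7A1HG had none.

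Where some transcripts of a host hold the hairpin in an exon and others do not, their shares of the host's TPM were set side by side. In MIR34AHG the transcript with the hairpin, MIR34AHG-204, held 96.6% of the TPM in replicate 1 and 100% in replicate 2. In MIR4458HG the transcript with the hairpin, MIR4458HG-203, held 16.4% and 10.4%, while MIR4458HG-201, which lacks it, led with 83.6% and 89.6%. In MIR22HG and MIR600HG every annotated transcript holds the hairpin. The depth behind a TPM is unknown, so these shares have no interval.

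The hairpins have rows of their own in the gene table. All 125 had a row, and 4 had a read: MIR205 with 2 reads in replicate 1 and 3 in replicate 2, MIR646 with 2 and 0, MIR2052 with 1 and 0, and MIR221 with 0 and 1. The hairpins of MIR302CHG and MIR17HG had no read in either library. In polyadenylated RNA these rows hold at most 3 reads, beside 1274 reads for the host with the most. Where a hairpin lies whole in an exon of its host, a read there falls in both genes. How such reads were counted is not given in the sources used here, so an empty row does not show that the hairpin sequence was absent.

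Transcript use was compared between the libraries for the 11 hosts with at least 1 TPM in each and more than 1 matched transcript. The transcript with the largest share was the same in 7 of them and differed in MIR2052HG, MIR205HG, MIR210HG and MIR600HG. In MIR205HG the leading transcript of replicate 1, MIR205HG-201, went from 25.6% to 18.0%, and that of replicate 2, MIR205HG-208, from 25.5% to 36.4%. In MIR600HG the estimate went wholly to MIR600HG-202 in replicate 1 and wholly to MIR600HG-201 in replicate 2. Those transcripts have 5977 and 5984 bases. In MIR210HG the transcript that led in replicate 2, MIR210HG-204, was listed at 0 in replicate 1. Among the hosts that kept their leading transcript, MIR4435-2HG-203 had 78.6% and 83.6%. The share moved more in MIR22HG-208, with 80.5% and 57.1%, and in MIR548XHG-203, with 48.8% and 75.9%.

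**Figure D3:**
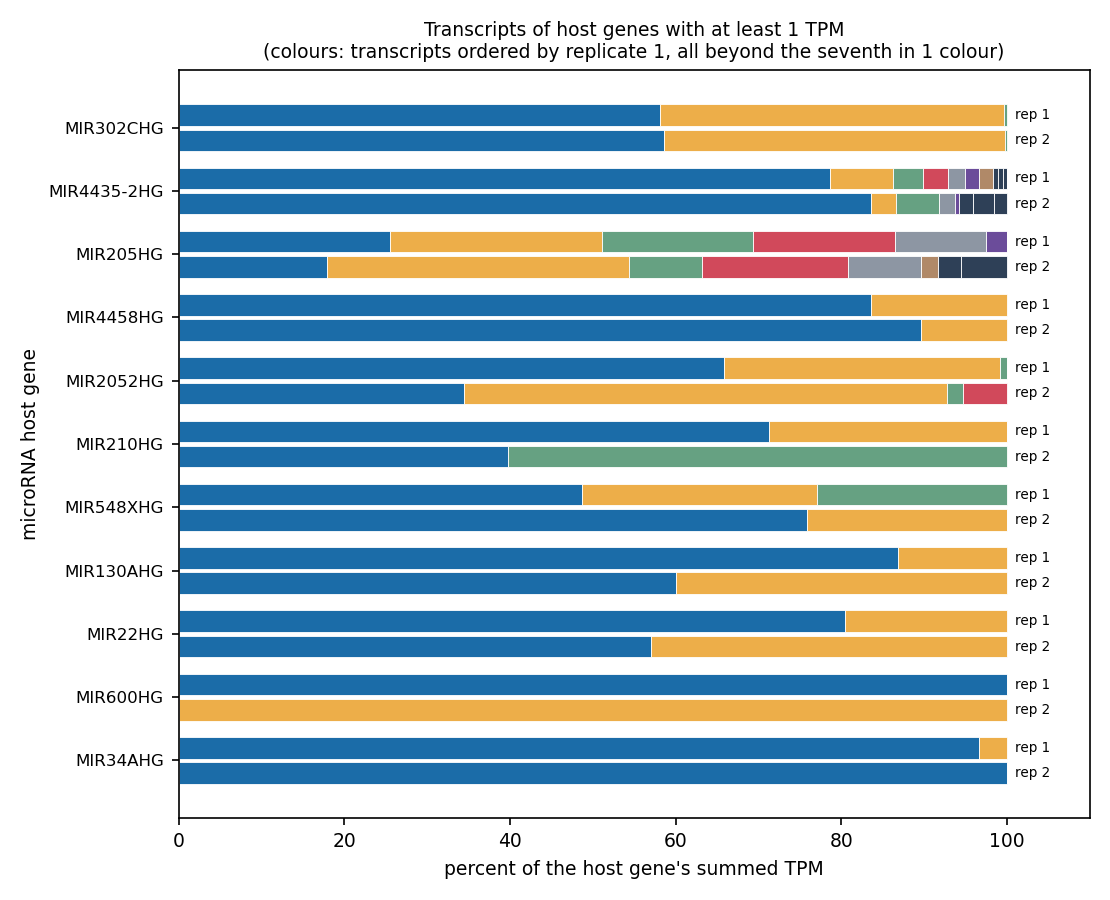
Share of each transcript in its host gene's summed TPM, in percent, for the 11 hosts compared, with a bar for each replicate and colours for transcripts in the order of replicate 1. MIR302CHG keeps 58.1% and 58.6% in its main transcript, whereas the bars of MIR600HG change colour entirely.

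The 2 deposited tables were then set against each other. Reads of a gene were compared with the number predicted from its transcripts' TPM times their length, both as CPM. This prediction takes full lengths and so overstates short transcripts. The 21 hosts compared were 20 detected ones and MIR200CHG, which was below the detection threshold. The detected MIR1915HG had no matched transcript and so no prediction. Reads exceeded the prediction by over 4-fold in MIR548XHG, MIR646HG, MIR17HG and MIRLET7A1HG, and in none of the 21 did they fall short by as much. For MIR548XHG the reads were 19.8 and 23.1 times the prediction. For MIR646HG they were 18.6 and 11.9 times.

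MIR17HG and MIRLET7A1HG had reads but no TPM. All 3 matched transcripts of MIR17HG were listed at 0 in both libraries, 2 of which hold its hairpins, against 64 and 81 reads for the gene. The single matched transcript of MIRLET7A1HG was listed at 0 as well. Of 251955 transcripts in the table, 50288 had no gene in GENCODE 29, and whether some of them belong to these hosts was not tested. Of the 20 detected hosts with a prediction these 4 make 20%, beside 18.8% of 910 detected long non-coding genes and 3.86% of 13380 detected genes. MIR302CHG had 0.758 and 0.779 times the reads predicted, and MIR205HG 1.87 and 1.65 times.

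**Figure D4:**
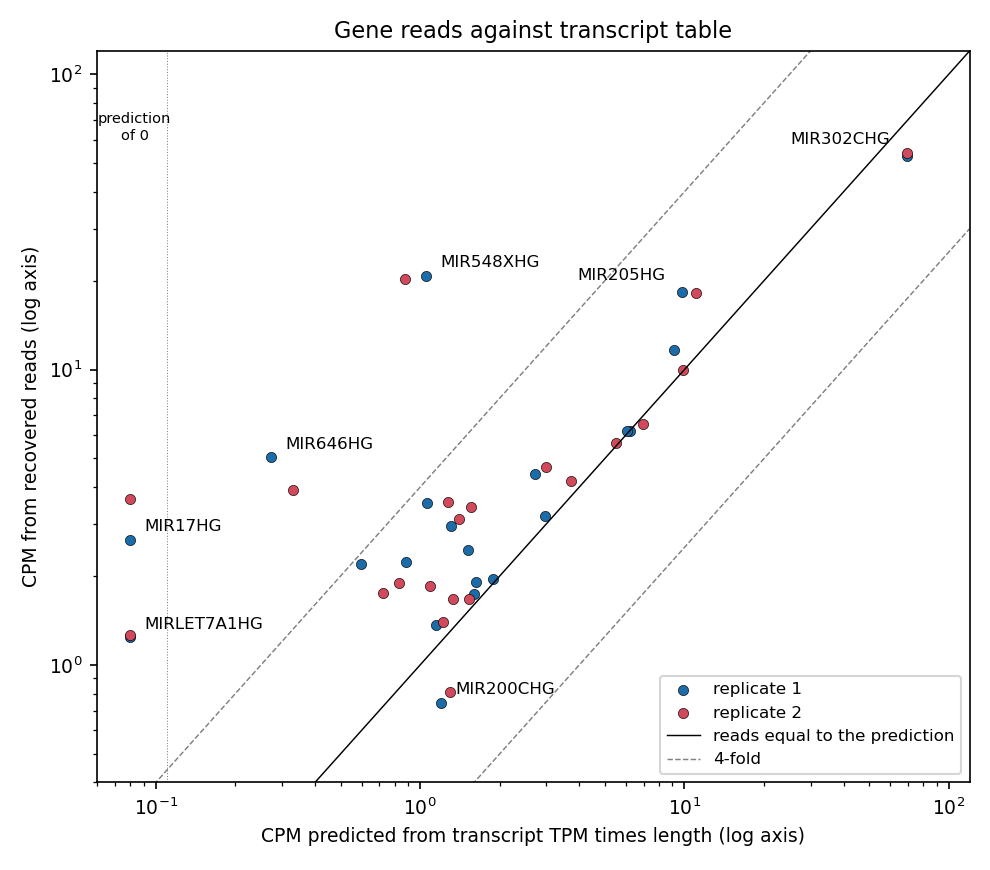
CPM from reads against CPM predicted from transcript TPM, both on log axes, for 21 host genes in each replicate, with the line of equality and dashed lines at 4-fold. MIR17HG and MIRLET7A1HG, predicted at 0, are drawn left of the dotted line, and MIR548XHG and MIR646HG lie above the upper dashed line.

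The machinery that cuts and loads microRNAs was present as RNA. All 22 listed genes of microRNA processing were detected. DROSHA had 11.4 ± 0.394 CPM per kilobase, DGCR8 7.53 ± 0.531 and DICER1 4.39 ± 0.505 (SD, n = 2 each). Levels ran from 0.517 for AGO3 to 187 for RAN, the GTPase that drives export. Between the libraries the exact binomial test called 5 of the 22. PRKRA, a partner of DICER1, was higher in replicate 2, and DDX5, LIN28A, AGO2 and DICER1 were lower. AGO2, the slicing Argonaute, went from 114 to 93.1 CPM and DICER1 from 58.3 to 49.6 CPM. Their adjusted p were 6.3e-10 and 0.0016 by edgeR's exact binomial test. Of all genes tested, 6.78% were called higher and 6.35% lower in replicate 2. The share called was smaller at low levels, 3.71% under a mean of 10 CPM, and this list had a median of 57.1 CPM. A share for genes at the levels of the list was not computed.

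MicroRNA hosts outside the symbol rule were set beside the members. Of 29 listed protein-coding hosts 25 were detected, with a median of 15.9 CPM per kilobase over the list. The list and the detected genes include LARP7, which lies on the strand opposite to the hairpins of MIR302CHG and is not their host by strand. The strands of the other listed genes and their hairpins are not given here. MCM7, a replication helicase subunit that hosts relatives of miR-17, had 59.1 ± 2.55 CPM per kilobase, and HNRNPK, an RNA-binding protein gene that hosts miR-7-1, was the highest at 220 ± 8.64 (SD, n = 2 each). COPZ2, MYH6, MYH7 and TRPM3 were not detected. The test called 7 of the 26 tested, beside 13.1% of all genes tested, with MCM7, MEST, PANK3, COPZ1 and SKA2 higher and HNRNPK and HUWE1 lower in replicate 2. These shares are not matched by level. The list had a median of 96.5 CPM, and of the genes tested with a mean under 10 CPM only 3.71% were called. Of 5 non-coding hosts with other names H19, the imprinted host of miR-675, had 59.6 ± 7.02 CPM per kilobase, DLEU2, the host of miR-15a and miR-16-1, 1.99 ± 0.213 and FTX 0.441 ± 0.0982 (SD, n = 2 each). H19 was higher and FTX lower in replicate 2 in the exact binomial test in edgeR, with adjusted p of 1.7e-12 and 0.0031. Per length, only H19 among these non-coding genes came near MIR302CHG.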

How the data were processed

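Polyadenylated RNA of 2 TCam-2 libraries, labelled as transduced with DDX53, was analysed. Trim Galore 0.6.10, STAR 2.7.11a, Salmon 1.10.2 and DESeq2 are named with GRCh38 in the submitters' processing notes; the gene counter and the annotation are not given in the sources used here. The transcript table holds TPM made by the authors. The gene table is named as CPM, but the signal deposited by the authors is reads scaled with 1 factor for each library: its columns sum to 24607395 and 24842414, and 100% of the values above 0 were whole multiples of 1 read (tolerance 0.01), worth 1.02 in replicate 1 and 1.12 in replicate 2. Dividing by that value gave whole reads. Of columns with per-sample values, 0 were left unused. In both tables the column of identifiers has no name, so library names were matched to the value columns in header order.

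CPM are relative to all reads in genes. Symbols came from a table of gene names, which matched all 62700 genes. Positions, exons and hairpins are those of GENCODE 29 on GRCh38, which held 83 of the 84 hosts by identifier (23 under another name) and 201667 of 251955 transcripts, with 94.8% of TPM. Exonic length is that of merged exons. The binomial test used edgeR 4.0.16 with TMM library sizes, filterByExpr and an adjusted threshold of 0.05, and was tested on simulated data. Levels had been planned in CPM; the scale per kilobase was added after seeing the data, for comparison between genes. Alternatives covered detection thresholds, scaling (DESeq2 1.42.0 size factors, library totals), the low-count filter, the pseudocount (0.1), summed TPM and each library alone. All hosts with at least 10 reads were named, with 10 of those without a read. The members, lists and rules were chosen with earlier results of these data known.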

Additional observations from a re-analysis of the deposited data

How the results depend on the processing

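No paired analysis was possible because there is only 1 group. The number of hosts detected, 21, was 34 at 0.1 CPM, 6 at 5 CPM and 13 with a summed TPM of at least 1, and 22 to 22 with each library taken alone. The share of host reads in MIR302CHG, 32.6%, was 82.5% of the TPM, which divides by length, and 32.4% to 32.9% by library. The median log2 difference of hosts -0.0053, was 0.090 with summed TPM, and the cause was not tested. It was -0.0056 with a pseudocount of 0.1, 0.0024 when centred and 0.021 over all hosts with a read, so its sign was not stable. The leading transcript differed in 7 of 19 hosts when 0.1 TPM sufficed and in 1 of 4 when 5 TPM was required. At 2-fold, 7 hosts had reads apart from the prediction. Counting hairpins that overlap an exon alone left 32 hosts of 79. The call of 1 host between the libraries was also 1 with DESeq2 size factors, library totals and no filter. Hosts near 1 CPM rest on few reads, as with MIRLET7A1HG at 30 and 28, which limits the differences that can be detected.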
